A study of Homo sapiens with 27 samples.

Results

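Cells of the human line QGP-1 that carried MAML3 lacking its first exon (dEx1) were compared with cells that carried full-length MAML3 (FL). QGP-1 is a pancreatic neuroendocrine tumour line. The comparison rests on 6 of the 27 RNA libraries of the series, 3 for each construct, chosen by line and construct from the labels and paired by replicate number. All genes were compared. Of 23230 gene symbols in the count table, 14206 passed the filter on low counts and were tested.

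Both constructs were cDNAs in the plasmid pCMV6-AC that add a carboxyl-terminal V5 tag. QGP-1 cells grown in RPMI with 10% fetal bovine serum were transfected with a lipid reagent (Lipofectamine), and RNA was taken with Trizol on day 3. The labels describe the 3 replicates of each construct as biological replicates. A further group of 3 QGP-1 libraries received the plasmid without MAML3 (vector); it took no part in the test, and its levels are given as the background. The BON-1 line, also from a pancreatic neuroendocrine tumour, and the neuroblastoma line SK-N-SH received the same constructs and give the contrast between lines. As a model the groups are limited to plasmid-driven expression in transfected cells of 1 line, and the share of cells that took up the plasmid is not stated.

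Mastermind-like proteins are nuclear coactivators. When a Notch receptor is cleaved, its intracellular part binds the DNA-binding factor RBPJ, and a Mastermind-like protein then joins the complex and recruits histone acetyltransferases, which switches on HES and HEY genes. The amino-terminal stretch of the protein, encoded by the first exon, makes the contact with Notch and RBPJ, while the rest holds the activation regions. MAML3 fusion genes found in neuroendocrine and other tumours lack this first exon.

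MAML3 lies on chromosome 4 of hg19, from 140637907 to 141075338 on the minus strand, and has 5 exons. Exon 1 spans 141074014 to 141075338, and 468 of its bases are coding (141074014 to 141074481). These are 156 codons in frame and 13.7% of the 3414 coding bases. The first 120 coding bases and the junction of exon 1 with exon 2 are shown because they are what separates the constructs. Both were read from the GRCh37 genome with the GENCODE annotation lifted to it. In the first sequence (chr4:141074362-141074481, minus strand) the capitals mark the start codon, and in the second the capitals mark the 30 bases of exon 2 (chr4:140812092-140812121) after the last 30 of exon 1 (chr4:141074014-141074043).
MAML3 start of coding exon 1: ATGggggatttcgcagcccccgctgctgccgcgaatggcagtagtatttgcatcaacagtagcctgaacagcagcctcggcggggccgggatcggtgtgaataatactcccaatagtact
MAML3 junction of exons 1 and 2: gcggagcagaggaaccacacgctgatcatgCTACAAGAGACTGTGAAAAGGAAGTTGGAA
The start codon used in the dEx1 construct is not given in the sources used here.

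MAML3 was measured first, as a check of the labels. In CPM (counts scaled by library size), its level in replicates 1 to 3 was 2728, 5894 and 5245 CPM with dEx1 and 2421, 9001 and 6233 CPM with FL. With vector it was 78.4, 41.3 and 100.5 CPM. Each library that received a construct was far above each vector library, and the dEx1 and FL libraries overlapped. The difference, dEx1 minus FL, was -0.23 on the log2 scale (SE 0.154, 95% interval -0.64 to 0.18), with an adjusted p = 0.755 by edgeR's quasi-likelihood test with the replicate as a block. Pair 1 was higher with dEx1 and pairs 2 and 3 were lower. Since counts are given for whole genes, plasmid and endogenous MAML3 are not separated, and the presence of exon 1 was not measured.

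The line was checked for markers of its label. Totals per library were 84030641 to 97298951 with dEx1, 92977932 to 120254457 with FL and 79395945 to 92435640 with vector, in deposited units whose worth in sequenced fragments is not stated. On principal components of the 6 libraries, the first (45.2% of the variance) parted replicate 3 from replicates 1 and 2, and the second (16.3%) parted dEx1 from FL. The hormone gene SST moved with the first component: it was at 1282, 1102 and 383 CPM in dEx1 replicates 1 to 3 and at 1165, 959 and 350 CPM with FL. Vector replicate 2 had 370 CPM of SST, near the replicate 3 libraries rather than replicate 2 of the other groups. The granin CHGA (545 to 1008 CPM over the 9 libraries), the keratin KRT8 (1537 to 2739 CPM) and the adhesion gene CEACAM5 (825 to 2396 CPM) were high throughout. NEUROD1 and PPY, an endocrine factor and a hormone, were listed at 0 in all 9. Fibroblast markers summed to 5.52 to 8.28 CPM with dEx1 and 7.84 to 11.7 CPM with FL, nearly all of it COL1A1, with DCN at 0. Immune markers summed to 3.99 to 5.15 CPM with dEx1 and 3.44 to 5.80 CPM with FL. Pancreatic ductal markers, keratins among them, were higher, at 652 to 816 CPM with dEx1 and 618 to 772 CPM with FL. Neuroblast markers summed to 38.9 to 62.6 CPM with dEx1 and 40.0 to 45.0 CPM with FL. The part of other cells in the results was not tested.

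Few transcripts of QGP-1 differed between the constructs beyond the spread of the pairs. At an adjusted p under 0.05, 1 of 14206 genes passed the test, which is 0.00704% of those tested. This was the long noncoding RNA NORAD, and it was higher with dEx1. At an unadjusted p under 0.05 there were 923 genes, or 6.5% of those tested, with 527 higher and 396 lower. All 3 pairs were higher with dEx1 for 2392 genes (16.8%) and lower for 2103 genes (14.8%). Of 11384 genes with at least 2 CPM in the higher group, 5 (0.0439%) were at least 2-fold higher with dEx1 in each of the 3 pairs and 10 (0.0878%) were at least 2-fold lower. The 10 were MMP10, MMP1, MMP12, CXCL8, NR4A1, KLHL41, IMPAD1, FOXD1, MASP1 and UGDH-AS1. The 5 were NORAD, CHTF8, MGAT5, TM6SF1 and C9orf129. FOXD1, UGDH-AS1, TM6SF1 and C9orf129 are named here after their values were seen.

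**Figure D1:**
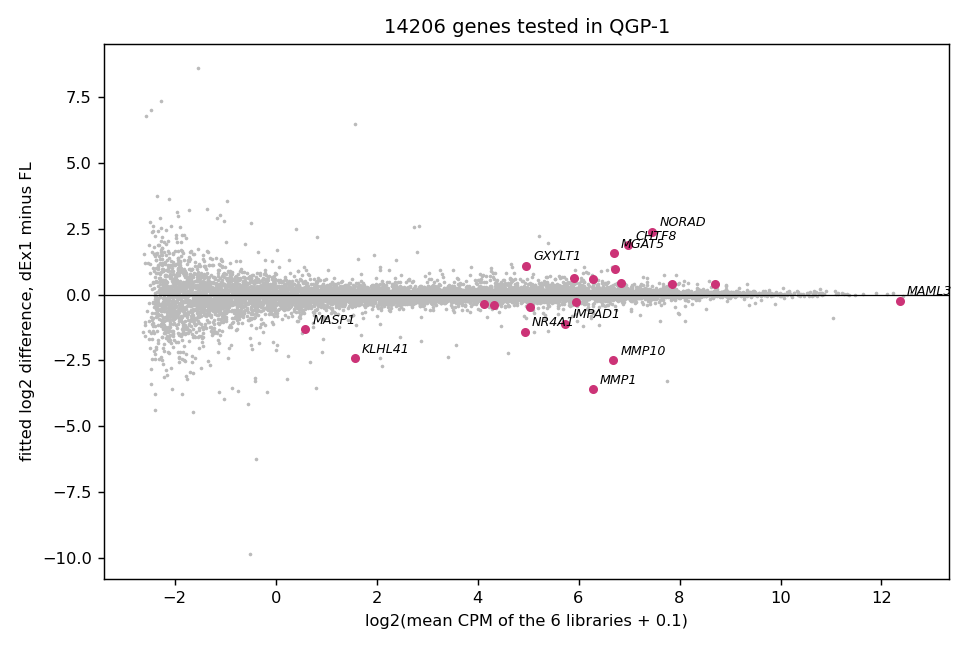
Each grey point is 1 of 14206 genes, with the log2 of the mean CPM of the 6 libraries (plus 0.1) on the x axis and the fitted log2 difference, dEx1 minus FL, on the y axis. Pink points are MAML3 and the 20 genes that the naming rule took by p, antisense and uncharacterised genes left out, each 1 way in all 3 pairs; NORAD, at 2.39, is the gene that passed the test, and most points lie close to 0.

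The secreted metalloproteases MMP10 and MMP1 were far lower with dEx1 than with FL, although neither passed the adjusted test. Both break down extracellular matrix: MMP10 is a stromelysin, which cuts proteoglycans and activates other proteases, and MMP1 is the interstitial collagenase. They are neighbours on chromosome 11 of hg19, MMP10 at 102641233 to 102651359 and MMP1 at 102660132 to 102668891, both on the minus strand. WTAPP1, a transcribed pseudogene on the opposite strand, overlaps both genes and was measured at 0.830 CPM with dEx1 and 1.33 CPM with FL.

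MMP10 was at 27.3, 40.8 and 25.0 CPM in dEx1 replicates 1 to 3. With FL it was at 128, 213 and 181 CPM, and with vector at 12.01, 9.81 and 9.14 CPM. The 3 groups did not overlap, and dEx1 lay between vector and FL, nearer to vector. The fitted difference, dEx1 minus FL, was -2.49 on the log2 scale (SE 0.139, 95% interval -2.86 to -2.12, adjusted p = 0.0955 by edgeR, lower in 3 of 3 pairs).

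MMP1 was at 12.5, 19.0 and 6.32 CPM with dEx1. With FL it was at 110, 182 and 135 CPM, and with vector at 4.004, 2.70 and 2.54 CPM. Again the groups did not overlap and the dEx1 libraries sat between the others. Here the difference was -3.59 (SE 0.302, 95% interval -4.40 to -2.78, adjusted p = 0.157 by edgeR, lower in 3 of 3 pairs). When the spread was taken from 18 dEx1 and FL libraries of 3 lines, an alternative chosen after seeing the data, MMP10 and MMP1 both had an adjusted p = 0.00242. That fit called 17 of 16541 genes (0.103%) in QGP-1. Over all alternatives the adjusted p ran from 1.40e-66 (DESeq2) to 0.203 for MMP10 and from 1.20e-16 (DESeq2) to 0.522 for MMP1.

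**Figure D2:**
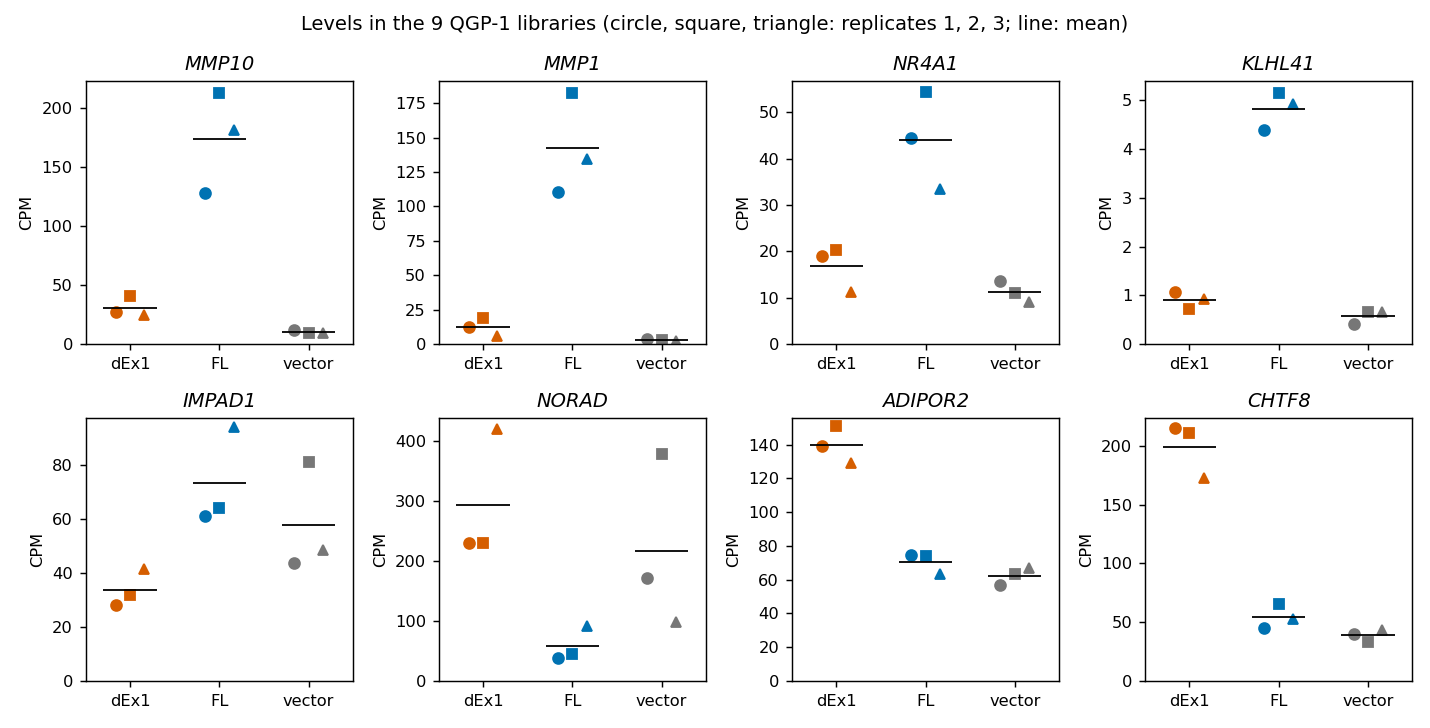
Each panel gives the CPM of 1 gene in the 9 QGP-1 libraries, with dEx1, FL and vector on the x axis, 1 marker shape per replicate and a line at the mean. MMP10, MMP1, NR4A1 and KLHL41 are highest with FL, ADIPOR2 and CHTF8 are highest with dEx1, and NORAD and IMPAD1 vary among the vector libraries as well.

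Of the other metalloproteases in the chromosome 11 cluster, MMP12 and MMP3 were low and MMP13 was not. MMP12, the macrophage elastase, was at 3.02, 2.79 and 3.14 CPM with FL, at 0, 0.429 and 0.459 CPM with dEx1 and at 0 in all vector libraries. MMP3, another stromelysin, was at 1.13, 1.90 and 0.311 CPM with FL and at 0.0486, 0 and 0.102 CPM with dEx1, where vector had 0.0559, 0.123 and 0.153 CPM. For both genes each FL library was above each dEx1 library. MMP12 and MMP3 are named after their values were seen. MMP13, a collagenase, was at 2.05, 2.65 and 12.7 CPM with dEx1, at 4.69, 6.23 and 14.96 CPM with FL and at 1.78, 11.4 and 13.9 CPM with vector. It was lower with dEx1 in 3 of 3 pairs (difference -0.86, SE 0.239, adjusted p = 0.724 by edgeR), and the 3 groups overlapped. Of the 23 tested genes of metalloproteases, the urokinase system and their inhibitors, 0 passed the test. In all 3 pairs 9 were lower with dEx1 and 0 were higher, against shares of 14.8% and 16.8% over all genes tested. Their median was -0.12 against 0.00287 over all genes tested. MMP12 and MMP3 could pass the filter on low counts only through FL, which set their direction. The gelatinase MMP2 (125 CPM with dEx1, 121 CPM with FL; difference 0.05, interval -0.07 to 0.16) and the inhibitor TIMP1 (164 and 161 CPM; 0.03, interval -0.11 to 0.17) differed by less than the spread. For 13 of the 23, the 95% interval lay within 2-fold either way.

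Upstream sequences were searched for 3 motifs, and that of MMP10 is shown. Other genes searched, such as NR4A1 and KLHL41, also differed in all 3 pairs without overlap. The RefSeq promoter table (GRCh38.p14) held 8 of the 13 genes looked up. Its 250 bases before the MMP10 start (chr11:102780629-102780878, minus strand) are printed with the AP-1 motif in capitals.
MMP10 upstream: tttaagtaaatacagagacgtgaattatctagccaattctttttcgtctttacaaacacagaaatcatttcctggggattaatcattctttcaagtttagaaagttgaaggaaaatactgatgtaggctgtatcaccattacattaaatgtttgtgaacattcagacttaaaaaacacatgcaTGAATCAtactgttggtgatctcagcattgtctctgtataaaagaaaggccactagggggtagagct
The AP-1 letters TGANTCA, searched on both strands, occurred 1 time, starting 67 bases before the start site. N stands for any base, here A. They occur in 6.6% of 27305 promoters of the same length. CXCL8 was the other of the 8 with a match. The RBPJ letters TGGGAA, present in 21.1% of promoters, and the NR4A letters AAAGGTCA, present in 1.0%, were not in the MMP10 window. Of the 8, CHTF8 had 1 RBPJ match, starting 126 bases before its start site. A match is a string of letters and no evidence of binding.

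NR4A1, an orphan nuclear receptor induced early after growth signals (hg19 chromosome 12, 52416616 to 52453291), was lower with dEx1 in each pair. It was at 19.1, 20.2 and 11.3 CPM with dEx1 and at 44.4, 54.4 and 33.3 CPM with FL. With vector it was at 13.7, 10.99 and 8.99 CPM. All FL libraries lay above all others, while dEx1 and vector overlapped. The difference was -1.40 (SE 0.0858, 95% interval -1.63 to -1.17, adjusted p = 0.114 by edgeR, and 0.0410 in the 18-library fit). Its adjusted p ran from 4.39e-35 (DESeq2) to 1 over the alternatives. NR4A1 belongs to a list of 19 tested AP-1 and immediate early genes, of which 0 passed, 9 were lower in all 3 pairs and 0 were higher. The median of the list was -0.07, and of all genes tested 14.8% were lower in all 3 pairs and 16.8% higher. The early growth response gene EGR1 was at 49.3, 54.5 and 74.6 CPM with dEx1 and at 68.6, 60.8 and 89.7 CPM with FL (difference -0.30, SE 0.0742, adjusted p = 0.724 by edgeR). The related receptor NR4A2 was at 128 CPM with dEx1 and 127 CPM with FL, a difference of 0.01 with an interval of -0.13 to 0.15.

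KLHL41, a muscle protein of the Kelch family (hg19 chromosome 2, 170366212 to 170382768), was at 1.08, 0.715 and 0.919 CPM with dEx1, at 4.40, 5.16 and 4.93 CPM with FL and at 0.414, 0.654 and 0.666 CPM with vector. Its FL libraries stood apart from the other 6. The annotation places another protein-coding gene on the same strand over 16221 bases of KLHL41, so its counts may not belong to it alone. The difference was -2.43 (SE 0.209, adjusted p = 0.157 by edgeR, and 0.0162 with 18 libraries). IMPAD1, a phosphatase of the Golgi, was at 27.9, 31.9 and 41.5 CPM with dEx1 and at 61.2, 64.0 and 94.1 CPM with FL, a difference of -1.10 (SE 0.0553, adjusted p = 0.0797 by edgeR). Its vector libraries, at 43.7, 80.8 and 48.4 CPM, lay above all dEx1 libraries and overlapped those of FL. The other 5 genes that the naming rule took on the lower side were C2CD4A, the death receptor TNFRSF10B, ARID5B and the methionine sulfoxide reductase MSRB3, with differences between -0.47 and -0.29, and the complement protease MASP1. MASP1 was at 0.716, 0.792 and 0.898 CPM with dEx1, at 1.81, 2.36 and 1.84 CPM with FL and at 0.705, 0.912 and 0.764 CPM with vector, a difference of -1.31 (SE 0.212). These 5 had an adjusted p of at least 0.644 by edgeR. UGDH-AS1, an antisense RNA outside the rule, had a smaller p than these 5 (difference -1.90, SE 0.262, adjusted p = 0.570 by edgeR), and its vector libraries ran from 4.34 to 23.3 CPM.

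A few secreted signals were detected with FL and were at or near 0 with both dEx1 and vector. CXCL8, the neutrophil chemokine interleukin 8, was at 0.316, 5.94 and 1.81 CPM with FL and at 0.146, 0.396 and 0.408 CPM with dEx1. Vector had 0.168, 0.284 and 0.142 CPM, and FL replicate 1 overlapped the dEx1 libraries. CXCL2, a related chemokine, was at 0.403, 1.86 and 1.70 CPM with FL and 0, 0.0550 and 0 CPM with dEx1, and it was listed at 0 in each vector library. GCG, the glucagon precursor, was at 1.36, 0.863 and 1.40 CPM with FL and was listed at 0 in the 6 other libraries. CXCL2 and GCG are named after their values were seen, and with so few counts no fold is given for either. Both could pass the filter on low counts only through FL, which set their direction. Of 12 tested inflammatory genes driven by NF-kB, 0 passed, and the median was -0.34. With dEx1 6 were lower in all 3 pairs and 1 was higher (14.8% and 16.8% over all genes tested). Without replicate 1 the median was -0.75. The NF-kB subunit RELB was at 8.40, 11.4 and 12.7 CPM with dEx1, below vector at 17.2, 15.4 and 16.3 CPM. With FL it was at 9.68, 21.1 and 19.5 CPM (dEx1 minus FL -0.57, SE 0.147, adjusted p = 0.724 by edgeR). ICAM1, an adhesion molecule, ran the other way at 3.92, 7.85 and 8.97 CPM with dEx1 and 2.90, 3.30 and 6.18 CPM with FL (difference 0.75).

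Among 30 tested interferon response genes, 0 passed, with a median of -0.19. In all 3 pairs 11 were lower with dEx1 and 3 were higher, where the shares over all genes were 14.8% and 16.8%. IFIH1, a sensor of double-stranded RNA, was at 7.86, 7.33 and 9.78 CPM with dEx1 and at 10.2, 13.9 and 12.5 CPM with FL, without overlap (difference -0.55, SE 0.142, adjusted p = 0.724 by edgeR). The antiviral gene IFIT5 was at 12.9, 13.7 and 23.0 CPM with dEx1 and 17.0, 20.5 and 26.7 CPM with FL, where the groups overlapped.

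On the higher side, NORAD stood out by its test. NORAD is a cytoplasmic RNA that binds PUMILIO proteins (hg19 chromosome 20, 34633540 to 34638940). It was at 229, 231 and 420 CPM with dEx1 and at 38.6, 44.2 and 91.3 CPM with FL, without overlap. The difference was 2.39 (SE 0.0818, 95% interval 2.17 to 2.61, adjusted p = 0.0452 by edgeR, higher in 3 of 3 pairs). Vector libraries were at 172, 379 and 98.7 CPM, a 3.84-fold range among replicates that received no MAML3. In BON-1 its level ran from 69.7 to 390 CPM over the 9 libraries, with FL replicate 3 at 342 CPM and dEx1 replicate 1 at 69.7 CPM. SK-N-SH ran from 64.6 to 359 CPM. The call was lost without replicate 2 or 3 and with a minimum mean of 2 CPM. It was also lost without the replicate block and with the vector libraries in the fit. The adjusted p of NORAD ran from 1.81e-140 (DESeq2) to 1 over all alternatives. Leaving out genes whose vector libraries spanned 2-fold or more, NORAD among them, left 0 genes called and 749 at an unadjusted p under 0.05.

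The adiponectin receptor ADIPOR2 (hg19 chromosome 12, 1797740 to 1897840) was at 139, 151 and 129 CPM with dEx1, at 74.6, 74.1 and 63.4 CPM with FL and at 56.5, 63.3 and 66.6 CPM with vector. The dEx1 libraries lay above the 6 others. Its difference was 0.99 (SE 0.0437, adjusted p = 0.0697 by edgeR). In the other lines its level varied without following the constructs: the vector libraries were at 91.8, 96.0 and 198 CPM in BON-1 and at 39.2, 69.5 and 45.1 CPM in SK-N-SH. CHTF8, which encodes a protein of a clamp loader in DNA replication (hg19 chromosome 16, 69151913 to 69166491), was at 215, 211 and 173 CPM with dEx1, at 45.3, 65.2 and 52.4 CPM with FL and at 39.6, 33.2 and 43.7 CPM with vector. The difference was 1.89 (SE 0.130, adjusted p = 0.155 by edgeR). The annotation places another gene, DERPC, on the same span and strand, so counts for CHTF8 may not belong to it alone. CHTF8 also varied among libraries that received no MAML3, at 153, 28.9 and 46.6 CPM in BON-1 vector and at 25.2, 96.6 and 25.3 CPM in SK-N-SH vector. MGAT5, a glycosyltransferase that branches N-glycans (hg19 chromosome 2, 134877554 to 135212192), was at 133, 154 and 179 CPM with dEx1 and at 54.8, 50.4 and 51.1 CPM with FL, while vector varied from 36.8 to 79.1 CPM. The difference was 1.57 (SE 0.111, adjusted p = 0.155 by edgeR). MGAT5 was also higher with dEx1 in SK-N-SH (difference 0.91, SE 0.176, adjusted p = 0.00430 by edgeR). In BON-1 its difference was -0.40 (SE 0.175, adjusted p = 0.699 by edgeR). Its vector libraries were at 223, 69.1 and 43.6 CPM in BON-1 and at 48.9, 98.5 and 56.9 CPM in SK-N-SH. The cause of such variation was not tested for CHTF8, MGAT5 or ADIPOR2. GXYLT1, ZNF33A, PACSIN2, the insulator factor CTCF, ILF2 and ZFHX3 made up the rest of the 10 taken by p on the higher side. They were higher with dEx1 by 0.39 to 1.10, with no overlap between dEx1 and FL, and had an adjusted p of 0.155 to 0.157 by edgeR. A small p and pairs going 1 way were the terms of the choice, so the lack of overlap is no separate support. The vector libraries of these genes also varied: they spanned 85.1 to 316 CPM for ZFHX3, 84.5 to 140 CPM for CTCF, 62.8 to 96.0 CPM for PACSIN2, 329 to 449 CPM for ILF2, 56.0 to 79.6 CPM for ZNF33A and 28.6 to 45.2 CPM for GXYLT1. The 18-library fit, chosen after seeing the data, called some of the 10 genes on the higher side. These were NORAD (adjusted p = 0.0160 by edgeR), PACSIN2 (0.0269), MGAT5 (0.0287) and ZNF33A (0.0324), and the others did not pass. The retinoic acid binding protein CRABP1 was at 5.63, 5.85 and 5.17 CPM with dEx1 and 2.87, 2.95 and 2.23 CPM with FL, and vector was at 2.52, 1.05 and 1.56 CPM (difference 1.06, SE 0.113, adjusted p = 0.286 by edgeR).

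**Figure D3:**
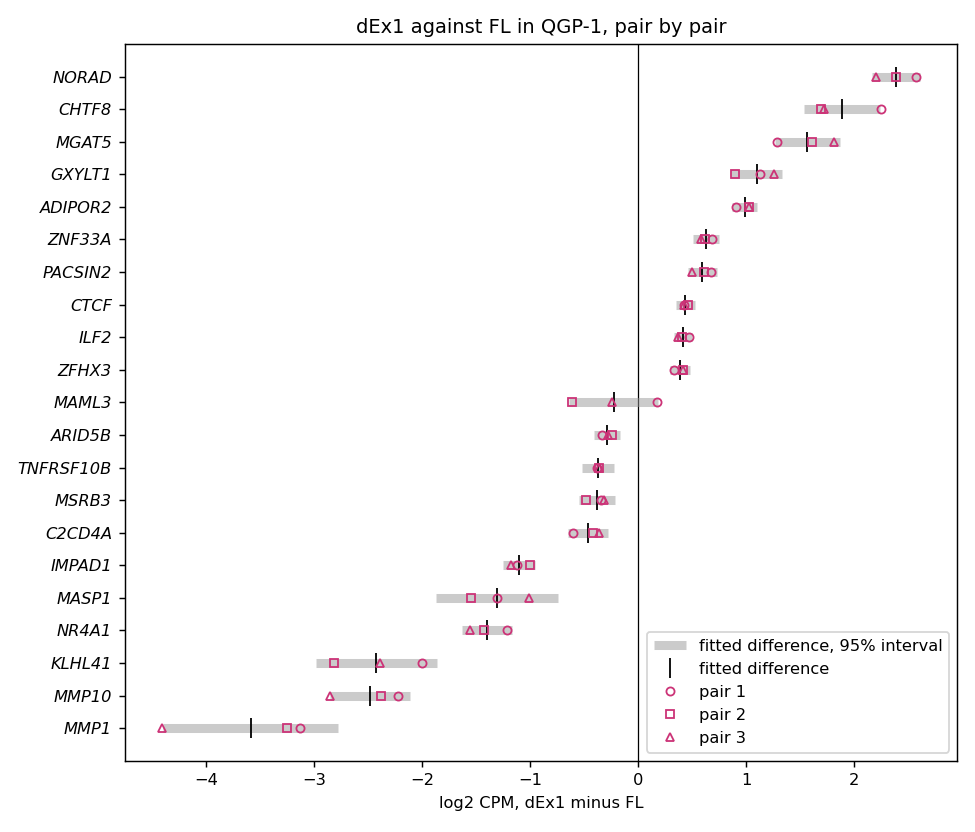
Fitted log2 differences, dEx1 minus FL, on the x axis for MAML3 and the 10 genes that the naming rule took by p in each direction (antisense and uncharacterised genes left out), with 95% intervals as grey bars and the 3 pairs as open markers. By the naming rule the 3 pairs of each gene lie on 1 side of 0, except those of MAML3, which run from -0.61 to 0.18.

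Most Notch target genes differed little between the constructs. Of 17 tested targets, 0 passed the test. With dEx1 5 were higher in all 3 pairs and 0 were lower, beside 16.8% and 14.8% of all genes. Their median was 0.08, and 0.03 without replicate 2. The fitted differences of the targets ran from -0.142 to 1.66. HES1, the best known target, was at 54.99, 58.1 and 49.8 CPM with dEx1, at 53.7, 50.8 and 45.9 CPM with FL and at 66.0, 49.5 and 53.9 CPM with vector, all overlapping (difference 0.12, 95% interval -0.02 to 0.26). HEY1 was at 8.93, 10.3 and 12.1 CPM with dEx1 and at 7.42, 10.98 and 10.96 CPM with FL (difference 0.11, interval -0.15 to 0.37). NRARP, a feedback inhibitor, had a difference of -0.06 (interval -0.23 to 0.11). For 15 of the 17, the interval lay within 2-fold either way. Among 29 tested receptors, ligands and partners of Notch, 0 passed, 7 were higher in all 3 pairs and 8 were lower. At an unadjusted p under 0.05 by edgeR, 5 of them were higher and 0 lower, against 527 and 396 of 14206 genes. RBPJ differed by 0.04 (interval -0.05 to 0.14) and MAML1 by 0.00 (interval -0.09 to 0.09). NOTCH1 was low, at 4.03, 4.76 and 0.837 CPM with dEx1 and at 2.99, 3.46 and 0.432 CPM with FL (difference 0.58, SE 0.165, adjusted p = 0.724 by edgeR).

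**Figure D4:**
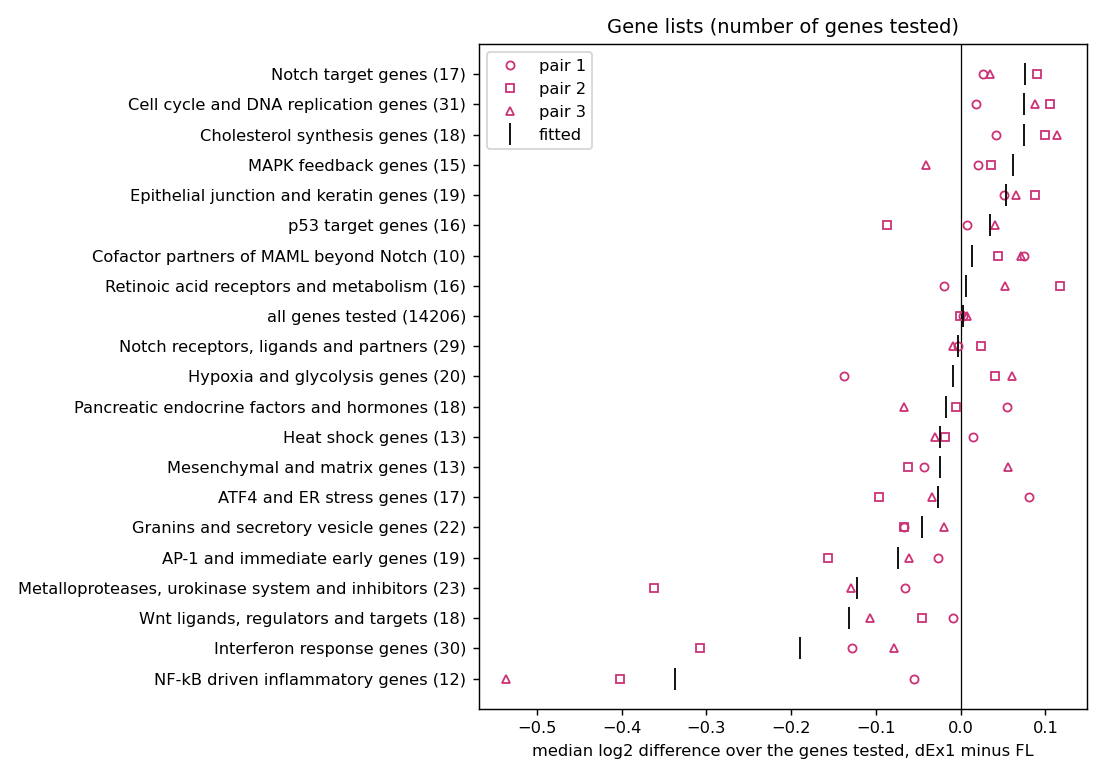
Median log2 difference, dEx1 minus FL, on the x axis for gene lists with 10 or more genes tested (numbers in parentheses), fitted (bar) and in each pair (open markers). NF-kB and interferon lists lie lowest, at -0.34 and -0.19, and the lists at the top reach 0.08.

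Growth and lipid genes did not pass the test. The counts below stand beside 16.8% of all genes tested that were higher in all 3 pairs and 14.8% that were lower. Of 31 tested cell cycle and replication genes, 0 passed, 15 were higher in all 3 pairs, 0 were lower and 16 were mixed, with a median of 0.07. AURKB, a mitotic kinase, was at 162, 140 and 52.3 CPM with dEx1 and at 150, 131 and 48.8 CPM with FL; replicate 3 of both groups was far below the others, and the difference was 0.11 (SE 0.0327). Of 18 cholesterol synthesis genes, 0 passed, 11 were higher in all 3 pairs, 0 were lower and 7 were mixed, with a median of 0.07. MVD, an enzyme of the mevalonate part of that pathway, was at 147, 148 and 115 CPM with dEx1 and at 138, 129 and 103 CPM with FL (difference 0.15, SE 0.0373). Epithelial genes had 0 passing of 19, with 8 higher and 2 lower, and KRT8 differed by 0.13 (interval 0.06 to 0.20).

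Neuroendocrine genes did not pass the test either. Here too the shares over all genes tested were 16.8% higher and 14.8% lower in all 3 pairs. Of 22 tested granin and vesicle genes 0 passed, 2 were higher and 5 were lower in all 3 pairs, and 19 of the 22 intervals lay within 2-fold. The granin CHGA differed by -0.02 (interval -0.10 to 0.07) and the prohormone-processing enzyme CPE by -0.04 (interval -0.13 to 0.04). SLC18A2, the vesicular monoamine transporter, was at 7.88, 8.22 and 13.4 CPM with dEx1 and at 1.47, 7.58 and 2.57 CPM with FL, while vector had 2.25, 10.3 and 10.1 CPM (difference 1.63, SE 0.554, adjusted p = 0.724 by edgeR). SST differed by 0.16 (SE 0.0235, higher in 3 of 3 pairs, adjusted p = 0.644 by edgeR). Of 18 tested endocrine factors and hormones, 0 passed, 2 were higher and 3 were lower in all 3 pairs, and 11 of the 18 intervals lay within 2-fold; GCG, described above, is one of the 3 lower. INSM1, an endocrine transcription factor, jumped between libraries without following the constructs: it was at 223, 42.2 and 317 CPM with dEx1, at 209, 201 and 50.2 CPM with FL and at 208, 53.7 and 313 CPM with vector. The cause was not tested.

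The dEx1 against FL contrast was also measured in the other lines. In a fit of 18 libraries with line by replicate blocks, the QGP-1 difference was tested against that of BON-1, and 0 of 16541 genes passed (0%) in edgeR's quasi-likelihood test, with 943 at an unadjusted p under 0.05 and 117 called by DESeq2. Against SK-N-SH, 3667 genes passed (22.2%), 1666 of them with a higher value in QGP-1 and 2001 with a lower one. The number falls to 1010 without the replicate block. In the SK-N-SH contrast itself 6005 genes passed, and in BON-1 0 passed, with 1168 at an unadjusted p under 0.05.

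MMP10 was lower with dEx1 in each line, by 2.498 in QGP-1, 1.39 in BON-1 (adjusted p = 0.0569 by edgeR) and 4.51 in SK-N-SH (adjusted p = 2.39e-06) on the log2 scale. MMP1 was lower by 3.60 in QGP-1, 0.69 in BON-1 (adjusted p = 0.498 by edgeR) and 4.67 in SK-N-SH (adjusted p = 8.10e-06). The QGP-1 difference was the smaller one against SK-N-SH for both, by 2.02 for MMP10 (adjusted p = 0.000681 by edgeR) and 1.07 for MMP1 (adjusted p = 0.0453). Against BON-1 it was larger by 1.11 for MMP10 (adjusted p = 0.242) and 2.91 for MMP1 (adjusted p = 0.0805), which did not pass. Unlike in QGP-1, both genes lay below vector with dEx1 in SK-N-SH. MMP1 was at 18.2 to 25.9 CPM there against 37.8 to 97.5 CPM with vector, and MMP10 at 2.86 to 3.91 against 5.26 to 10.4 CPM. In BON-1 the MMP1 level ran from 53.6 to 192 CPM with vector and from 146 to 266 CPM with FL. NR4A1 was lower by 2.01 in BON-1 (adjusted p = 0.0547 by edgeR) and 0.89 in SK-N-SH (adjusted p = 0.00518). For NR4A1 neither line differed from QGP-1 by the test (adjusted p = 0.867 and 0.192 by edgeR). Some genes with a small p against SK-N-SH had QGP-1 differences near 0. The epithelial factor ELF3 differed by 0.06 in QGP-1 (interval -0.04 to 0.16) and fell by 2.91 in SK-N-SH. The unconventional myosin MYO1D differed by 0.02 in QGP-1 (interval -0.04 to 0.09) and was higher with dEx1 by 1.69 in SK-N-SH.

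**Figure D5:**
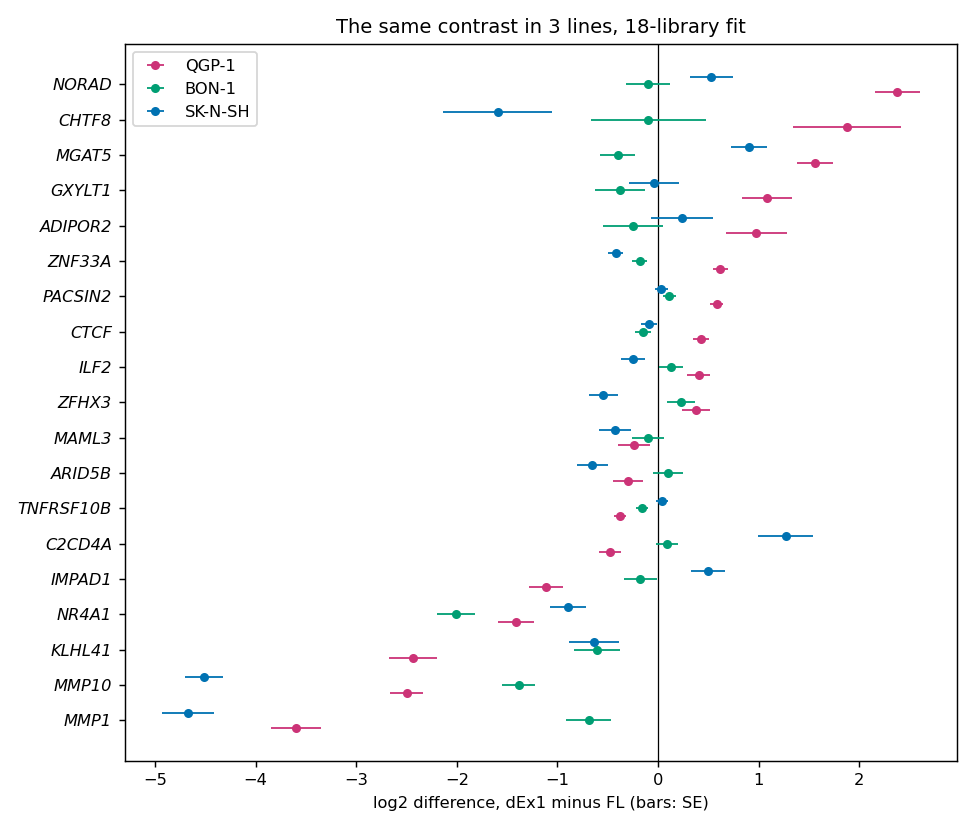
Log2 difference, dEx1 minus FL, on the x axis in QGP-1, BON-1 and SK-N-SH from the 18-library fit, with SE bars, for MAML3 and the named genes (MSRB3 and MASP1 are left out, the first since its BON-1 value of -5.13 has an SE of 1.02 and the second since it was listed at 0 in the SK-N-SH libraries). MMP10, MMP1 and NR4A1 lie below 0 in the 3 lines, while NORAD is at 2.38 in QGP-1 and -0.10 in BON-1. C2CD4A is kept, though it was at most 0.353 CPM in the SK-N-SH dEx1 and FL libraries.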

How the data were processed

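The libraries come from a TruSeq mRNA kit. Per the submitters' processing notes, the authors trimmed with Trimmomatic, aligned to hg19 with HISAT2 and estimated abundances with StringTie; versions, annotation and strand setting are not given in the sources used here. Values are StringTie-based estimated counts, which the authors deposited as whole numbers; 4 of 23234 rows repeat a symbol, and 23230 symbols were used.

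The 6 libraries were tested with edgeR 4.0.16 (R 4.3.3): filterByExpr, TMM, quasi-likelihood F test, replicate number as a block, Benjamini-Hochberg adjustment over all genes and a threshold of 0.05. The fit has 2 residual degrees of freedom. Where no tool is named, an adjusted p is edgeR's, except that ranges over alternatives also take in DESeq2 and limma-voom. Levels are CPM after TMM over the 9 libraries of a line, pair differences have a prior count of 2, and intervals are 95%. Same-numbered dEx1 and FL libraries deviated together from their group means (correlations 0.37, 0.258 and 0.594), so the numbers were taken as pairs; the pairing comes from the labels' replicate numbers. Contrasts between lines are interaction terms in a fit of 18 libraries. Alternatives used DESeq2 1.42.0 and limma-voom (limma 3.58.1); the others are listed in the closing section.

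Genes named are MAML3, the 10 of smallest p in each direction that moved 1 way in 3 of 3 pairs with at least 2 CPM in the higher group (those past the threshold first; antisense, uncharacterised and small RNA genes and pseudogenes left out), up to 3 members of each list, and up to 5 per contrast between lines; the text gives part of them, and a few are not reported here. The members and lists were chosen with earlier results of these data known. For genes taken by p, agreement of the 3 pairs was a condition of the choice. Neither it nor a lack of overlap is separate support. Figures were drawn with matplotlib 3.10.9. Coordinates are GENCODE on GRCh37, and 92 of 93 symbols matched.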

Additional observations from a re-analysis of the deposited data

Results flagged for a closer look

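The dEx1 against FL difference was not the same, in size or direction, in QGP-1 and SK-N-SH for 46 of 83 named genes. The test was the interaction term of edgeR's quasi-likelihood test in the 18-library fit, where 22.2% of all genes tested passed. Against BON-1 0 of the 83 passed in that fit. Values are QGP-1 minus SK-N-SH on the log2 scale, so they do not show by themselves whether both lines went the same way.

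Of the genes taken by p on the higher side, NORAD differed by 1.85, CHTF8 by 3.47, ZNF33A by 1.04, ILF2 by 0.65, CTCF by 0.52, PACSIN2 by 0.55 and ZFHX3 by 0.92, with an adjusted p between 0.000410 (ZNF33A) and 0.0223 (ILF2). Some went the opposite way in SK-N-SH and passed there, lower with dEx1. These were CHTF8 (-1.59, adjusted p = 0.0489 by edgeR), ZNF33A (-0.42, 0.00274) and ZFHX3 (-0.54, 0.0162). CHTF8 was at 25.2, 96.6 and 25.3 CPM in SK-N-SH vector libraries, so it varied there without MAML3, and NORAD was at 258, 276 and 64.6 CPM. The part of this variation in the 2 values was not tested.

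Among genes taken on the lower side, the value was -1.61 for IMPAD1, -1.80 for KLHL41, -1.74 for C2CD4A, -0.42 for TNFRSF10B and -1.20 for MSRB3, with an adjusted p between 0.00204 (IMPAD1) and 0.0103 (TNFRSF10B). Higher with dEx1 in SK-N-SH, and past the threshold there, were IMPAD1 (0.50, adjusted p = 0.0442 by edgeR), C2CD4A (1.27, 0.00895) and MSRB3 (0.81, 0.00344). In the SK-N-SH dEx1 and FL libraries, KLHL41 was at most 0.862 CPM and C2CD4A at most 0.353 CPM, so their values rest on few counts. MMP10 and MMP1 were lower in both lines and differed by 2.02 and 1.07, the larger difference being in SK-N-SH.

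Genes with the smallest p of the named ones were the membrane protein CDCP1 at 3.20 (adjusted p = 1.52e-06), WNT7B at 4.36 (4.65e-06), MYO1D at -1.67 and ELF3 at 2.96 (1.30e-05 for both). CDCP1, MYO1D and ELF3 were named because of their small p in this test. In QGP-1 itself CDCP1, WNT7B, MYO1D and ELF3 had differences between 0.01 and 0.30. With dEx1 in SK-N-SH, WNT7B was at most 0.820 CPM, so the size of its value rests on few counts.

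The members of gene lists follow. Values above 0 were found for the Notch genes CCND1 (0.34), DLL4 (3.75) and LFNG (0.84), the inflammatory genes TNFSF10 (5.88), CXCL8 (3.40) and ICAM1 (3.05), and the collagenase MMP13 (6.57). They were also above 0 for APCDD1 (0.83), DHRS3 (4.37), TGFA (2.54), FOSL2 (0.51), DUSP6 (0.91), PHLDA1 (1.32), DUSP10 (0.61), SESN2 (0.99), XBP1 (0.58), HK2 (0.98), KRT7 (1.32), DSP (6.96) and NEAT1 (1.11). In SK-N-SH, TGFA was at most 0.247 CPM with either construct. With dEx1 there, DLL4, MMP13 and TNFSF10 were at most 0.312, 0.105 and 0.623 CPM, and DHRS3 was at 1.36, 0.987 and 0.523 CPM. The size of the value rests on few counts for these genes. Values below 0 were found for SYT1 (-0.27), LGR5 (-4.33), HSPB1 (-1.49), HSP90AA1 (-0.16), MVD (-0.93), SREBF2 (-0.42), KRT8 (-0.82) and COL1A1 (-1.97). Over these list members the adjusted p ran from 2.16e-05 (TNFSF10 and DHRS3) to 0.0463 (SYT1).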

How the results depend on the processing

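The count of called genes, 1 (1 higher, 0 lower), depends on the processing. Without the replicate block it was 0. With all 9 QGP-1 libraries it was 2 without the block (CHTF8 up, MMP10 down) and 0 with it, and with a mean of at least 2 CPM it was 0. DESeq2 called 122 (71 higher, 51 lower), and a robust spread called 3 (2 higher, 1 lower). Added after seeing the data, the 18-library fit called 17 (8 higher, 9 lower), and leaving out genes that spanned 2-fold among vector libraries called 0. No filter, DESeq2 size factors, limma-voom, counts divided by 5 and leaving MAML3 out each gave 1. Leaving out 1 replicate gave 0 to 4 called, with 0 to 3 higher and 0 to 1 lower. Against BON-1 the count of 0 became 4 without the block and 117 with DESeq2, and 0 to 1 when a QGP-1 replicate was left out. Against SK-N-SH the 3667 became 1010 without the block, 4784 with DESeq2, and 2511 to 2598 when a QGP-1 replicate was left out. The block moved these counts as given and is part of the paired main fit.

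Of 1241 values for 83 named genes under alternatives, 1191 kept direction and side of the threshold, 38 newly passed, 6 (all NORAD) no longer passed and 6 changed sign. Leaving out a replicate gave -0.0893 to 0.00754 for TGFA, -0.294 to 0.0367 for HBEGF, -0.139 to 0.0288 for EGF and -0.0162 to 0.0464 for CDCP1, and the 18-library fit gave -0.00387 for CDCP1; the cause was not tested. Of 360 list medians, 17 moved by more than the spread of the pairs. Genes under about 1 CPM rest on few counts, and the worth of a deposited unit in fragments is not known, so no counting interval is given for them.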
